A study of Mus musculus with 2 samples.

Results

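The miR-181 family was described in the adrenal gland from all 6 of its annotated mouse genes, Mir181a-1, Mir181a-2, Mir181b-1, Mir181b-2, Mir181c and Mir181d, among 2202 microRNA (miRNA) genes measured. The genes were chosen by name alone, as the rows that GENCODE M21 assigns to these symbols. Small RNA was sequenced from total RNA of adrenal gland tissue of female B6CASTF1/J mice aged 18 to 20 months, the first-generation hybrid of C57BL/6J and CAST/EiJ. The labels give a size range under 30, without a unit. The study holds 1 group of 2 biological replicates and no second age, sex, tissue or treatment, so no condition was compared. The labels number the samples as different females but enter both under the same donor record, so a difference between the libraries may be technical, and p values say nothing of a wider group of animals.

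miRNAs are short RNAs cut from a hairpin precursor. The strand that is kept guides the Argonaute protein to messenger RNAs that pair with its seed, bases 2 to 8, and lowers their output. The miR-181 family is known from lymphocytes, where miR-181a tunes the sensitivity of the T cell receptor in thymocytes, from endothelium, where miR-181b restrains inflammatory signalling, and from heart, where miR-181c acts on a mitochondrial transcript. Vertebrates carry the family as pairs of neighbouring genes at 3 loci.

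The mature sequences decide which gene a read can be assigned to, so they are shown first. All 6 genes matched RefSeq mature sequences (GRCm38.p6), with 10 distinct sequences in all. The 5p arms come in 4 forms, given here 5′ to 3′ with the seed in capitals:
miR-181a-5p: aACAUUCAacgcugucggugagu
miR-181b-5p: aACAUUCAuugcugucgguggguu
miR-181c-5p: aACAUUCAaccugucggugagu
miR-181d-5p: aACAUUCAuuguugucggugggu
The seed ACAUUCA was the same in all 4, and no other gene of the RefSeq table carried it. Counted from the first base of the arm, miR-181d-5p differed from miR-181b-5p by C12U, and otherwise only in ending 1 base earlier. miR-181c-5p equals miR-181a-5p with the G at position 11 removed. miR-181b-5p differed from miR-181a-5p by A9U, C10U and A21G over their common length.

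The 3p arms, which are usually the less abundant arms of these hairpins, are different in every gene and have 4 seeds, again in capitals:
miR-181a-1-3p: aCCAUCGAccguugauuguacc
miR-181a-2-3p: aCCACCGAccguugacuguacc
miR-181b-1-3p: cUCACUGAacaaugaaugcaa
miR-181b-2-3p: cUCACUGAucaaugaaugcaaa
miR-181c-3p: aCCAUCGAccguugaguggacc
miR-181d-3p: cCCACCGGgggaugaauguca
The arms of Mir181a-1 and Mir181c share a 3p seed, as do those of Mir181b-1 and Mir181b-2. The pair Mir181a-1 and Mir181a-2 differed at U5C and U16C, and the pair Mir181b-1 and Mir181b-2 at A9U.

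Both miR-181a-5p and miR-181b-5p are found at 2 genes. The 30 bases that start at the first base of the 5p arm are shown for both pairs on the plus strand of GRCm38.p6, with capitals from the first base that tells the 2 genes apart:
Mir181a-1 (chr1:137966468-137966497): aacauucaacgcugucggugaguuuggAAU
Mir181a-2 (chr2:38852741-38852770): aacauucaacgcugucggugaguuuggGAU
Mir181b-1 (chr1:137966650-137966679): aacauucauugcugucgguggguuGAACUG
Mir181b-2 (chr2:38853845-38853874): aacauucauugcugucgguggguuUGAAUG
A 5p read of miR-181a is the same at both genes up to base 27, which is 4 bases past the annotated end, and first differs at A28G. A 5p read of miR-181b is the same up to base 24, the annotated end itself, and first differs at G25U. Reads that align to several places were counted in a class of their own and not in any gene, and that class held 2357429 reads of replicate 1 and 1958627 of replicate 2. How many of them were miR-181a-5p or miR-181b-5p was not measured, so the counts of these 4 genes are no measure of the abundance of the shared arms. The hairpins of Mir181c and Mir181d share no run of 18 bases with another miRNA gene, their longest runs shared with any other gene of the family being 17 and 13 bases.

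On mm10 with GENCODE M21, Mir181a-1 (ENSMUSG00000065565.1) lies on chromosome 1 at 137966455 to 137966541 and Mir181b-1 (ENSMUSG00000065458.1) at 137966639 to 137966718, both on the plus strand with 97 bases between them. Both are inside the noncoding gene Gm4258 but in none of its exons, and Mir181b-1 is also inside the exon of the lincRNA A430106G13Rik, which begins within Mir181a-1. Mir181a-2 (ENSMUSG00000065423.1), at 38852735 to 38852810 on the plus strand of chromosome 2, and Mir181b-2 (ENSMUSG00000065578.1), at 38853830 to 38853918, are 1019 bases apart. They lie opposite to introns of the protein-coding gene Nr6a1, a nuclear receptor gene on the minus strand, and Mir181b-2 also lies opposite to an exon of the uncurated transcript Gm44144. Mir181c (ENSMUSG00000065483.2), at 84178873 to 84178961 on the minus strand of chromosome 8, and Mir181d (ENSMUSG00000076338.1), at 84178716 to 84178787, are 85 bases apart in an intron of Nanos3, a gene of germ cell maintenance.

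Counts on the own strand of miRNA genes totalled 2590051 in replicate 1 and 2291030 in replicate 2, and levels are given as counts per 1000000 of these totals (CPM). Of the 2202 genes, 339 had at least 10 counts in each library, the level called detected here. The tables hold miRNA genes only, so messenger RNA markers of the adrenal cortex could not be looked up. Of the miRNA marker lists, the endocrine list summed to 66107 and 56588 CPM in replicates 1 and 2, nearly all of it Mir375, and the endothelial list to 64764 and 33414 CPM, nearly all of it Mir126a. The leukocyte list, with no marker at 0, summed to 4272 and 3757 CPM. The neuronal list summed to 710 and 607 CPM with 4 of 12 markers at 0 in both libraries, all 3 Mir124a genes among them, and the erythroid list to 902 and 490.2 CPM. The striated muscle list summed to 598 and 81.2 CPM, with 4 of 9 markers at 0 in both, and the epithelial list to 1192 and 1871 CPM. Every neuronal or muscle marker at 0 in both libraries shares a run of 18 bases with another miRNA gene. Their reads may lie in the class aligned to several places, so these zeros do not show absence. The summed level was thus lower in replicate 2 for every list but the epithelial one, and the part of these lists in the results below was not tested. A lower sum need not hold for the members of a list. In the leukocyte list Mir15b went from 1017 to 567 CPM, while the median log2 ratio of its 8 tested genes was 0.0058. Of those 8 genes, 2 passed as higher in replicate 1 and 2 as higher in replicate 2.

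All 6 genes of the family were detected. Together they had 4525 counts in replicate 1 and 3787 in replicate 2, which is 1747 CPM (1697 to 1799, Wilson 95% interval) and 1653 CPM (1601 to 1706). The family thus held 0.170% ± 0.00665 of all counts (SD, n = 2), and the intervals of the libraries overlapped. Intervals cover counting error only and treat each read as independent. Copies made in the PCR are not independent molecules, so the intervals may be too narrow.

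The chromosome 8 pair gave most of these counts. Mir181d, the nearest of the pair to miR-181b in sequence, had 1766 counts in replicate 1 and 1563 in replicate 2, or 682 CPM in each (Wilson 95% intervals 651 to 714 and 649 to 717). It was number 97 and number 90 by level among the 339 detected genes. Mir181c, which is 1 base shorter than miR-181a in its 5p arm, had 1983 counts in replicate 1 and 1070 in replicate 2, or 766 CPM (733 to 800.1) and 467 CPM (440 to 496). Its place went from number 91 to number 108. Mir181c was therefore above Mir181d in replicate 1 and below it in replicate 2, and the sum of both, 1298 ± 211 CPM (SD, n = 2), was higher in replicate 1, at 1447 CPM against 1149 CPM in replicate 2.

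The counts of the chromosome 2 pair were nearly all from Mir181b-2. Mir181b-2 had 646 counts in replicate 1 and 1049 in replicate 2, or 249 CPM (Wilson 95% interval 231 to 269) and 458 CPM (431 to 486), which made it number 141 and number 109 of the detected genes. Its neighbour Mir181a-2 had 44 and 23 counts, or 17 CPM (12.7 to 22.8) and 10.04 CPM (6.69 to 15.1). The sum of the pair was 266 CPM in replicate 1 and 468 CPM in replicate 2, so this pair was higher in replicate 2, in the opposite sense to the chromosome 8 pair.

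The chromosome 1 pair had low counts in both libraries. Mir181a-1, the locus deleted in mice to study miR-181a in thymocytes, had 73 and 61 counts, or 28.2 CPM (Wilson 95% interval 22.4 to 35.4) and 26.6 CPM (20.7 to 34.2). Mir181b-1 was the lowest of the family with 13 and 21 counts, or 5.02 CPM (2.93 to 8.59) and 9.17 CPM (6.0 to 14). The pair summed to 33.2 and 35.8 CPM, and the libraries' intervals overlapped for both genes.

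**Figure D1:**
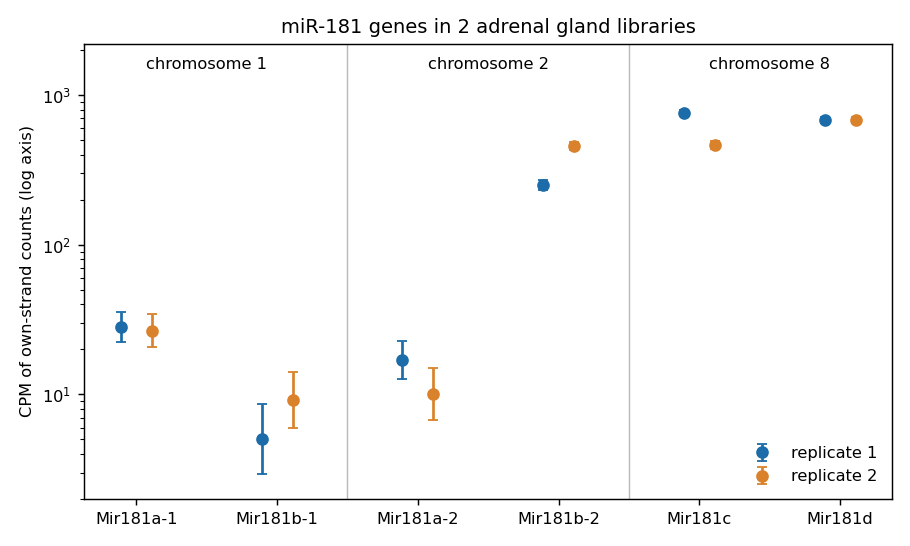
Level of each miR-181 gene in CPM of own-strand counts on a log axis, in replicate 1 (blue) and replicate 2 (orange), with Wilson 95% intervals that cover counting error only, grouped by chromosome. Mir181c, Mir181d and Mir181b-2 lie between 249 and 766 CPM and the other 3 genes between 5.02 and 28.2 CPM.

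Small RNA reads span a whole mature arm, so a count does not grow with the hairpin, but hairpins of the family run from 72 to 89 bases and levels of different genes were therefore also divided by hairpin length and scaled to a sum of 1000000. On this scale the order was the same in both libraries: Mir181d at 752 ± 3.27, Mir181c at 550 ± 186, Mir181b-2 at 316 ± 133, Mir181a-1 at 25.0 ± 0.908, Mir181a-2 at 14.1 ± 5.08 and Mir181b-1 at 7.05 ± 2.94 (SD, n = 2 each). The mean ± SD ranges of Mir181c and Mir181b-2 overlapped, as did those of Mir181a-2 and Mir181b-1, so these neighbours in the order were not set apart by more than their spread. The closest library values of Mir181c and Mir181b-2 were 8.20 apart on this scale, and those of Mir181a-2 and Mir181b-1 were 1.39 apart. The order of Mir181d and Mir181c depends on the division by length. In CPM it differed between the libraries, and their mean ± SD ranges overlapped (682 ± 0.273 and 616 ± 211).

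As shares of the family's own counts, the chromosome 8 pair held 82.9% (81.7 to 83.9, Wilson 95% interval) in replicate 1 and 69.5% (68.0 to 71.0) in replicate 2. The chromosome 2 pair held 15.2% (14.2 to 16.3) and 28.3% (26.9 to 29.8), and the chromosome 1 pair 1.90% (1.54 to 2.34) and 2.17% (1.75 to 2.68). Over both libraries the means were 76.2% ± 9.42, 21.8% ± 9.23 and 2.03% ± 0.187 (SD, n = 2 each). The order of the 3 loci was the same in both libraries and their mean ± SD ranges did not overlap. This is an order of counted reads. Reads of the 5p arms shared by the chromosome 1 and chromosome 2 pairs may lie in the class aligned to several places. In contrast, miR-181c-5p and miR-181d-5p are each found at 1 gene. Within the family's counts Mir181d kept 39.0% and 41.3%, while Mir181c had 43.8% and 28.3% and Mir181b-2 had 14.3% and 27.7%.

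**Figure D2:**
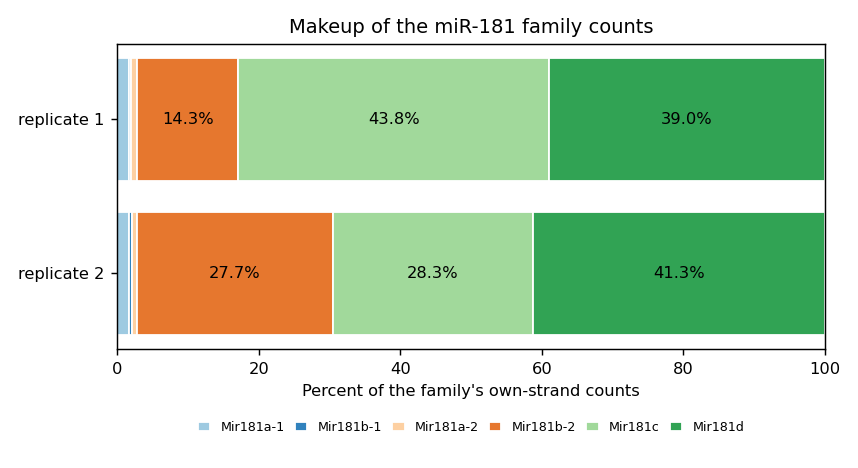
Percent of the miR-181 family's own-strand counts held by each gene in replicate 1 and replicate 2, as stacked bars that add up to 100%. Mir181d takes 39.0% and 41.3%, Mir181c 43.8% and 28.3%, and Mir181b-2 14.3% and 27.7%.

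The difference between the libraries was tested gene by gene by an exact binomial test, two-sided and conditional on the gene's summed count. Scaling of library sizes used TMM factors from edgeR, 1.01 and 0.987, and the Benjamini-Hochberg adjustment covered the 367 genes with a summed count of at least 20. Counting error is the only spread this test knows, and it compares 2 libraries, not conditions. Of the 6 genes of the family, 1 was higher in replicate 2 and 1 higher in replicate 1, where 62.7% of all tested genes passed in either direction, 30.2% with replicate 2 higher and 32.4% with replicate 1 higher. With TMM over all genes, an alternative chosen after seeing the data, the 111 and 119 calls in these directions became 85 and 139. Over the 6 genes the median log2 ratio of replicate 2 over replicate 1 was -0.0031, beside 0.014 over all 367.

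Mir181b-2 was higher in replicate 2, with a log2 ratio of 0.91 (95% interval 0.77 to 1.06; exact test, adjusted p = 3.17e-37). Mir181c was lower in replicate 2, with a log2 ratio of -0.68 (-0.78 to -0.57; exact test, adjusted p = 1.30e-35). These differences were of a common size in these libraries, since 79 of the 367 tested genes had a larger absolute log2 ratio than Mir181b-2 and 132 a larger one than Mir181c. When the dispersion was instead estimated from the spread between both libraries (biological coefficient of variation 0.432, edgeR's exact test), neither passed, each with an adjusted p of 1.0, and 5 of the 367 genes did.

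The other 4 genes did not pass. Mir181d had a log2 ratio of 0.038 (-0.061 to 0.14; adjusted p = 0.544, exact test), the narrowest interval of the 6 genes. Its sign turned with DESeq2 size factors (-0.054) and with TMM over all genes (-0.094). Mir181a-1 had -0.044 (-0.56 to 0.47; adjusted p = 0.971, exact test). Mir181b-1 had 0.88 (-0.16 to 2.03; adjusted p = 0.125, exact test) and Mir181a-2 -0.71 (-1.52 to 0.038; adjusted p = 0.0779, exact test). At these counts the interval of Mir181b-1 includes the ratio of Mir181b-2, and that of Mir181a-2 includes the ratio of Mir181c. Mir181a-2 passed the exact test when DESeq2 size factors were used, with a log2 ratio of -0.80 and an adjusted p of 0.0455.

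**Figure D3:**
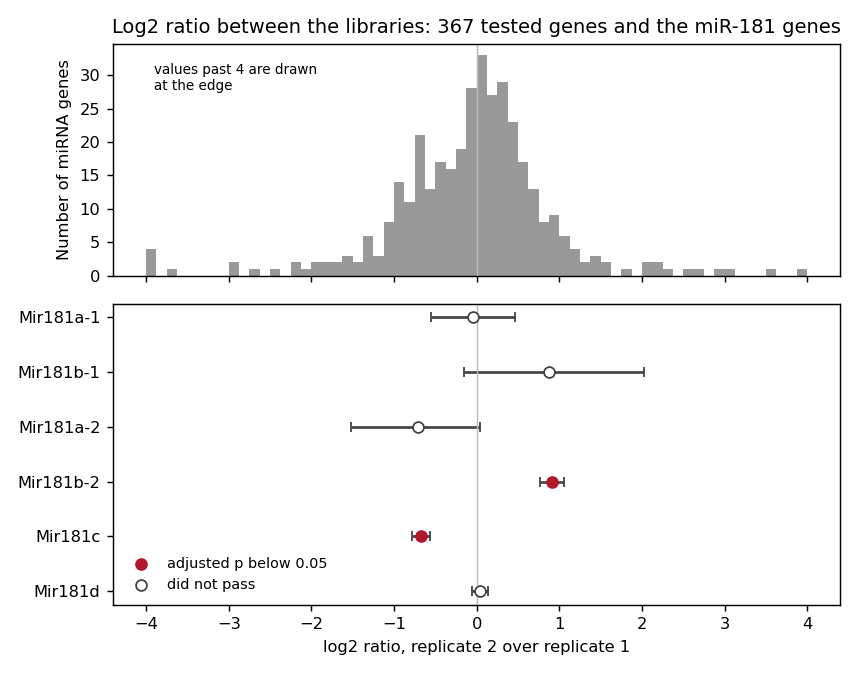
Upper panel: number of miRNA genes by log2 ratio of replicate 2 over replicate 1, for the 367 tested genes. Lower panel: the 6 miR-181 genes on the same axis with exact 95% intervals, filled where the adjusted p of the exact test is below 0.05, which holds for Mir181b-2 (0.91) and Mir181c (-0.68).

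Within each locus the 2 neighbours were set against each other, which does not depend on how the libraries are scaled. The log2 ratio of Mir181c over Mir181d was 0.17 in replicate 1 and -0.55 in replicate 2, with a mean of -0.19. The log2 ratio of Mir181b-2 over Mir181a-2 was 3.86 and 5.48, a mean of 4.67, and that of Mir181b-1 over Mir181a-1 was -2.44 and -1.52, a mean of -1.98 (prior count 0.5). The b gene was thus the higher of its pair on chromosome 2 and the lower on chromosome 1 in both libraries, by counted reads. The 5p reads of the a genes are the same at both loci up to base 27, and those of the b genes up to base 24. They may therefore be missing from the counts of a and b genes to a different extent, which was not measured.

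Whether such a ratio differed between the libraries was tested with Fisher's exact test, two-sided, over all 94 pairs of adjacent genes that lie at most 10 kb apart on 1 strand, of which 62.8% passed after Benjamini-Hochberg adjustment. The ratio of Mir181c over Mir181d fell by 0.71 on the log2 scale from replicate 1 to replicate 2 (95% interval -0.86 to -0.57, adjusted p = 2.68e-21). The ratio of Mir181b-2 over Mir181a-2 was higher by 1.62 in replicate 2 (0.86 to 2.44, adjusted p = 2.42e-05), and 7 of the 94 pairs had a larger absolute change. The ratio of Mir181b-1 over Mir181a-1 was higher by 0.93 and did not pass (-0.25 to 2.19, adjusted p = 0.167). The median absolute change over all pairs was 0.59. With 2 of 3 pairs of the family passing, the share is near that of all pairs.

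**Figure D4:**
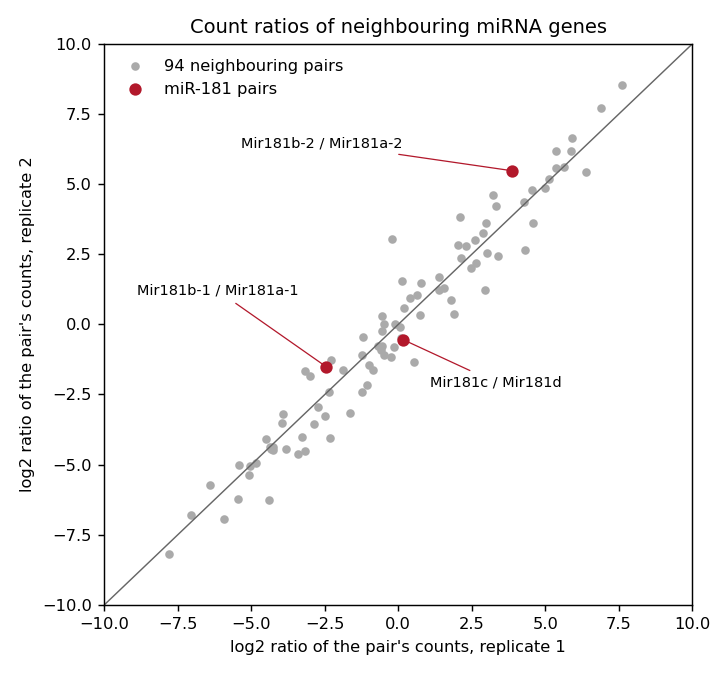
Log2 ratio of the own-strand counts of 2 neighbouring miRNA genes in replicate 1 (x) against replicate 2 (y), for 94 pairs within 10 kb (grey) and the 3 miR-181 pairs (red), with the line of equal ratios. Mir181b-2 over Mir181a-2 lies above the line at 3.86 and 5.48, and Mir181c over Mir181d below it at 0.17 and -0.55.

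The genes that share a 5p arm across loci were far from equal in the b pair and closer in the a pair. Mir181b-2 had 49.7 counts for each count of Mir181b-1 in replicate 1 (exact 95% interval 28.9 to 93.8) and 49.95 in replicate 2 (32.5 to 81.0). Mir181a-1 had 1.66 counts for each count of Mir181a-2 in replicate 1 and 2.65 in replicate 2. The 4 genes together had 776 and 1154 counts, and Mir181b-2 accounts for 646 and 1049 of them.

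Families that also mix a mature arm found at 2 genes with arms found at 1 were set beside this one. In the miR-26 family, Mir26a-1 and Mir26a-2 share an arm that is identical for 25 bases from its start, 3 past its end, and had 1.69 and 1.18 counts of the first for each of the second. In the miR-103 family, which includes Mir107, Mir103-1 and Mir103-2 share 24 bases, 1 past the end, and Mir103-2 had 3.00 and 4.07 counts for each of Mir103-1. In the miR-29 family, Mir29b-1 and Mir29b-2 share 23 bases, 0 past the end, and had 1.44 and 1.49 counts of the first for each of the second. The shared arm is the 3p arm in the miR-29b pair and the 5p arm in the miR-181b pair. Both pairs diverge at the annotated end of that arm, and their count ratios were 1.44 and 49.7 in replicate 1. Which arm the counted reads came from was not measured.

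The genes with no shared arm held 98.6% of counts in replicate 1 and 99.5% in replicate 2 in the miR-26 family, where this is Mir26b at 20810 CPM. They held 98.7% and 98.6% in the miR-103 family, where this is Mir107 at 2062 CPM, and 99.4% and 99.5% in the miR-29 family, from Mir29a and Mir29c. The corresponding shares of the miR-181 family, 82.9% and 69.5%, were lower, with Wilson intervals that did not overlap those of any of these families in either library. These intervals cover counting error only. The miR-181 family's own intervals, 81.7 to 83.9 and 68.0 to 71.0, did not overlap between the libraries, so they do not measure that spread. A shared arm here means an identical full mature sequence. Mir107 and Mir29c still share a run of 18 bases with another miRNA gene, and Mir26b, Mir29a, Mir181c and Mir181d do not. Among the 41 detected genes with some but not all of their mature arms found at another gene, the median level was 58.4 CPM, and Mir181b-2 was number 7, Mir181a-1 number 27, Mir181a-2 number 33 and Mir181b-1 number 40. Among the 262 detected genes with no shared arm the median was 157 CPM, and Mir181d and Mir181c were number 84 and number 89. These classes cover the 1018 genes of the tables that matched RefSeq mature sequences by symbol. Between the libraries the comparison families differed in direction: all 4 miR-29 genes were higher in replicate 1, Mir26b was higher and Mir26a-1 and Mir26a-2 were lower in replicate 2, and of the miR-103 family only Mir107 passed, higher in replicate 2 by 0.22 on the log2 scale (exact test, adjusted p = 6.39e-14). These calls stand beside 62.7% of all tested genes, and with edgeR's estimated dispersion 5 of the 367 genes passed in all.

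**Figure D5:**
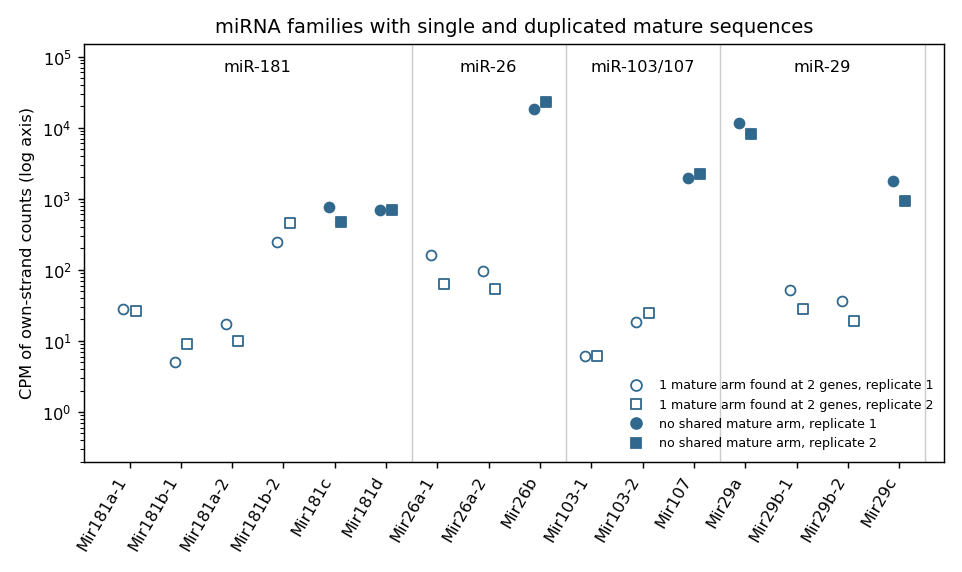
Level in CPM on a log axis of each gene of the miR-181, miR-26, miR-103 and miR-29 families in replicate 1 (circles) and replicate 2 (squares), open where 1 mature arm is found at 2 genes and filled where none is. Mir181b-2, at 249 and 458 CPM, is the highest of the open symbols.

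Leukocyte miRNAs were set beside the family because miR-181 is best known from lymphocytes. Of the 8 tested leukocyte genes, 2 were higher in replicate 1 and 2 in replicate 2, and the median log2 ratio was 0.0058, beside 62.7% called and a median of 0.014 over all 367 tested genes. The list was led by Mir146, a feedback inhibitor of NF-kB signalling, with 1012 and 971 CPM, and by Mir15b with 1017 and 567 CPM. In bulk tissue, fewer cells of a type and less RNA per cell cannot be told apart.

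The genes nearest in level to the highest gene of each locus were found by distance in log2(CPM + 1) over both libraries, among 333 detected genes outside the family. Mirlet7c-1, a let-7 gene, was nearest to Mir181d at a distance of 0.035 log2 units, with 1724 and 1571 counts, and Mir122, a liver miRNA, was next at 0.14. Mir667, of the imprinted region on chromosome 12, was nearest to Mir181b-2 at 0.23, with 755 and 1023 counts, and Mir188, on the X chromosome, was next at 0.28 with 707 and 880 counts. Mir33, the miRNA inside Srebf2 that acts on cholesterol export, and Mir539 were nearest to Mir181a-1 at 0.16 and 0.18, with 66 and 58 counts of Mir33 and 75 and 69 of Mir539. With 2 libraries such a distance describes levels only.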

How the data were processed

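Each library has a deposited table of raw counts of reads per miRNA gene with 3 columns, strand ignored, own strand and opposite strand, on mm10 with GENCODE M21 per the deposited notes. Details of alignment, trimming and counting were not given in the sources used here. The columns are unnamed, and of the stranded columns the one with more counts in each library was read as own strand. The 4 rows that name no gene stayed out of totals and tests. They held 73.6% of the 9807567 reads of replicate 1 and 67.2% of the 6993665 reads of replicate 2. All 2202 identifiers matched GENCODE M21. Reads with CAST/EiJ alleles may be lost against mm10, which was not tested.

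TMM factors (edgeR 4.0.16, R 4.3.3) were computed over genes with a summed count of at least 20. Tests were run in scipy 1.17.1, at an adjusted p of 0.05. They were tested on simulated data with counting error only, which does not cover a further spread between the libraries. Log2 ratios have a prior count of 0.5. Alternatives included DESeq2 1.42.0 size factors, edgeR's exact test, filters, strand and hairpin length. The genes, lists and tests were chosen with earlier results of these data known. Genes named are the 6 of the family, the 2 nearest in level to the highest gene of each locus, 3 comparison families and the 2 highest leukocyte miRNAs. A count of 0 allows up to 3 counts, 1.16 CPM in replicate 1 and 1.31 CPM in replicate 2. No sample was left out.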

Additional observations from a re-analysis of the deposited data

Results flagged for a closer look

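Reads were present in classes that the gene counts do not use. Reads that aligned to several places numbered 2357429 in replicate 1 and 1958627 in replicate 2, which is 0.910 and 0.855 for each counted read. Unmapped reads numbered 3983683 and 2084143, and reads in no miRNA gene 876402 and 659864. Opposite-strand counts in miRNA genes numbered 400130 and 252273, of which the 6 miR-181 genes had 0 in both libraries. These are not a further class of unused reads. With strand ignored, 399729 and 252074 reads became ambiguous between genes, and gene counts fell to 2190727 and 2039157. Nearly all opposite-strand counts are thus reads also counted on the own strand of an overlapping gene.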

How the results depend on the processing

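No paired analysis was possible because the study holds a single group. With all reads of the table as the denominator, the mean level was 501 CPM in place of 1700.02 CPM for the family, and 10.2, 112 and 379 CPM for the chromosome 1, 2 and 8 pairs. With strand ignored it was 1961 CPM for the family and 39.7 CPM for the chromosome 1 pair. The counts of the 6 genes did not change there, and only the total was smaller, at 2190727 and 2039157. Divided by hairpin length, the level of the chromosome 1 pair was 32.1. Leaving out a replicate gives the other's level, 1653 to 1747 CPM for the family, 33.2 to 35.8, 266 to 468 and 1149 to 1447 CPM for the 3 pairs. The order of the 3 loci by counted reads was the same under each of these. edgeR's exact test with an estimated dispersion called 5 genes in place of 230, with 2 in place of 111 higher in replicate 2 and 3 in place of 119 higher in replicate 1. At an unadjusted p under 0.05 it gave 20. TMM over all genes, an alternative chosen after seeing the data, moved the median log2 ratio of tested genes from 0.014 to -0.12 and the calls to 85 with replicate 2 higher and 139 with replicate 1 higher. Under it Mir181a-2 passed (log2 ratio -0.84, adjusted p = 0.0339, exact test). Mir181d, which did not pass in any setting, changed sign, to -0.094 with TMM over all genes and to -0.054 with DESeq2 size factors. Mir181b-2 and Mir181c passed in 7 of 8 alternatives, with log2 ratios from 0.78 to 0.91 and from -0.81 to -0.67. Those 7 all keep the exact binomial test, which knows counting error only. Neither gene passed with edgeR's estimated dispersion, the only alternative that allows a further spread between the libraries. That spread was estimated from the same 2 libraries that were compared, so this setting cannot separate a difference of either gene from it. Low counts, 13 to 73 per library, limit the tests of the chromosome 1 pair and Mir181a-2. Each of these genes shares its 5p arm with a gene at another locus, and reads of that arm may be missing from its count. The part of sequencing depth in these low counts was not tested.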
